A study of Mus musculus with 31 samples.

Results

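The comparison was insulin against saline in the livers of fasted WT mice, and its samples were chosen by their labels for genotype and treatment. It held 8 of the 31 samples of the series, 4 from mice given saline and 4 from mice given insulin. The series deals with how insulin controls ERRα, an orphan nuclear receptor of mitochondrial genes, and the question here was which other genes and pathways of the liver differ after insulin. The WT mice had a C57BL/6N background and an age of 2 to 3 months, and the methods name male mice unless another sex is stated. They were fasted for 12 h overnight and injected intraperitoneally with saline or with insulin at 1 unit/kg, and livers were taken 4 h later at zeitgeber time 6, that is, 6 h after lights on. Livers of ERRα-/- mice with the same background, age, fast and injections, 4 given saline and 3 given insulin, served for 1 comparison near the end. Total RNA of whole liver was sequenced. The total counts of the saline samples were 38537068, 37508292, 40800316 and 41740965, and those of the insulin samples were 38518400, 35871419, 38856911 and 40590962. Of 35275 gene identifiers, 13463 had enough counts to be tested. The labels give each sample a number, and the study's methods count animals as n in vivo, so the p-values measure the spread between mice.

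Insulin acts on hepatocytes through the insulin receptor and the IRS proteins, which recruit phosphatidylinositol 3-kinase and activate the kinase AKT. AKT phosphorylates FoxO transcription factors and keeps them out of the nucleus, which lowers the transcription of genes of gluconeogenesis and of Igfbp1, and it activates SREBP-1c, which drives lipogenesis. Fasting works in the opposite direction through glucagon, cAMP and glucocorticoids, and a fall in blood glucose after an insulin injection is known to release the same hormones. Blood glucose and hormones were not analysed here.

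The libraries had the profile of liver before any comparison. Albumin was the most abundant gene in all 8, at 6.03 to 7.28% of counts, and 8 hepatocyte markers summed to 101912, 101692, 94204 and 100182 CPM with saline and 98018, 95865, 96778 and 101678 CPM with insulin, where CPM are counts scaled to library size. In bulk RNA of whole liver, fewer cells of a type and less RNA per cell cannot be told apart. Insulin replicate 2 stood apart from the other libraries in its transcript lengths. The slope of log2 expression on log2 exon length, relative to the mean of all libraries, was 0.00658, 0.0841, 0.0610 and 0.0127 with saline and −0.0257, −0.160, 0.0542 and −0.0328 with insulin, so that short transcripts were over-represented in insulin replicate 2. The share of counts from the mitochondrial genome was 4.82, 3.68, 4.10 and 4.70% with saline and 3.88, 1.88, 4.05 and 4.17% with insulin, again lowest in that library. It also had a count for the fewest genes, 14507 against 15169 to 16925 in the others, and the lowest weight of limma voom, 0.331 against 0.599 to 1.98. As group means, the length slope differed between insulin and saline by −0.0822 (exact permutation test, p = 0.143) and by −0.0425 without insulin replicate 2. The mitochondrial share differed by −0.831 percentage points (exact permutation test, p = 0.229) and by −0.293 without it. The counts, lists and named genes were therefore also computed without insulin replicate 2.

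**Figure D1:**
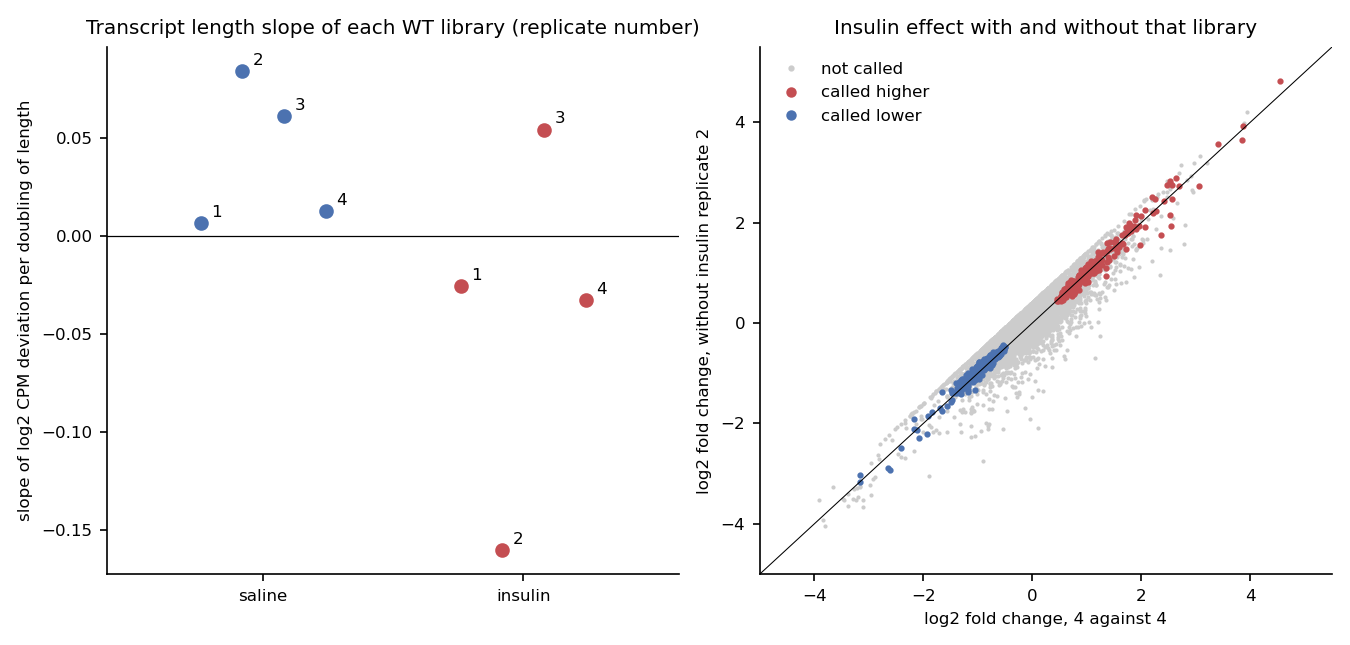
Length slope of each library (left; slope of log2 expression on log2 exon length, relative to the mean of all libraries, with replicate numbers) and log2 fold change of each gene, insulin over saline, from all 8 samples and without insulin replicate 2 (right; called genes in colour, the line marks equal values). Insulin replicate 2 has the lowest slope, −0.16, and no called gene changes sign without it, which the reuse of the other samples favours.

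Insulin was followed by changes in a small share of the liver transcriptome, in both directions. At an adjusted p under 0.05, 205 genes were higher (1.52% of those tested) and 220 were lower (1.63%), where each adjusted p is that of the quasi-likelihood test of edgeR, adjusted by Benjamini-Hochberg over all genes tested. By the threshold of the study, an unadjusted p under 0.05 with a fold change of at least 1.2, here called nominal, 1123 genes were higher (8.34%) and 1199 lower (8.91%). Log2 fold changes are of insulin over saline and are given ± standard error, and the median of a list is that of its log2 fold changes; over all genes tested it was 0.00. Without insulin replicate 2, 188 genes were higher (1.36% of 13800) and 179 lower (1.3%). All 205 genes called higher had the same sign without it and 152 were called again, and all 220 called lower had the same sign and 156 were called again, while 36 and 23 genes were called without it alone. The called genes were chosen with that library included and the other samples were reused, which favours the same sign. The counts fell further without some other libraries. They were 77 higher and 87 lower without saline replicate 1, 145 and 136 without saline replicate 2, and 87 and 99 without saline replicate 3. They were 58 and 47 without saline replicate 4, and 86 and 78 without insulin replicate 4. Without insulin replicate 1 they were 186 and 223, and without insulin replicate 3 they were 173 and 194. DESeq2 called 434 higher and 502 lower, and limma voom with sample weights 439 and 488. Below, a pair of counts gives genes higher and genes lower, a range after a median its extremes with 1 library left out, and values in brackets after the name of a library are adjusted p-values of the gene without it.

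**Figure D2:**
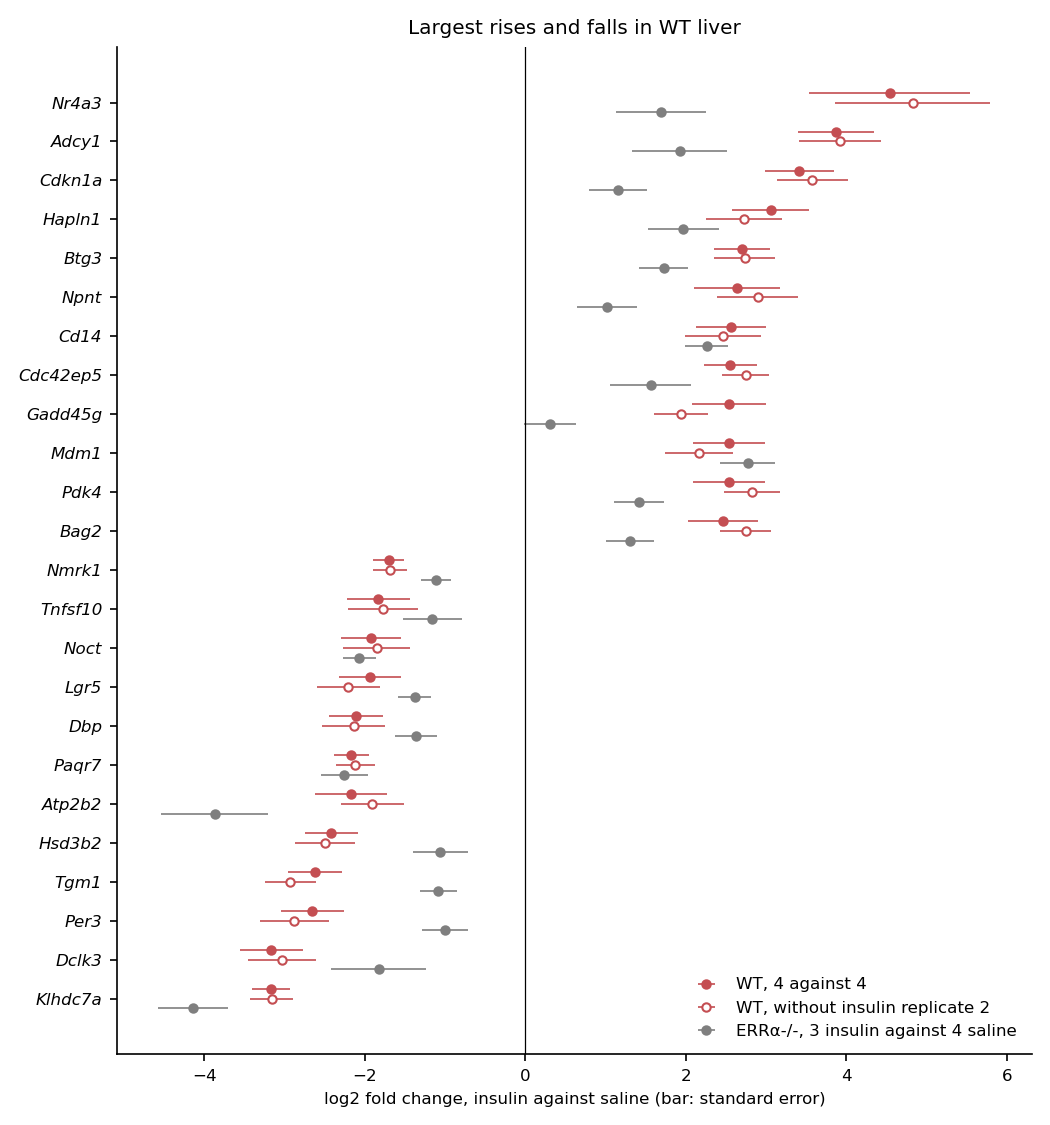
Log2 fold change, insulin over saline, of the 12 largest rises and the 12 largest falls, with standard errors, from all 8 samples, without insulin replicate 2 and in ERRα-/- livers. All 24 genes keep their direction when that sample is left out, which the reuse of the other samples favours.

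The 12 largest rises included an inhibitor of the cell cycle, an adenylyl cyclase and a kinase that controls pyruvate use. Cdkn1a (ENSMUSG00000023067, chr17:29090976-29100727, plus strand), which encodes the cyclin-dependent kinase inhibitor p21, had 10.7, 28.04, 23.03 and 6.89 with saline and 273, 119, 144 and 195 CPM with insulin. The rise was 10.7-fold (3.41 ± 0.43, adjusted p 0.00280; 3.57 without insulin replicate 2). Adcy1 (ENSMUSG00000020431, chr11:7063489-7178506, plus strand), a calcium-stimulated adenylyl cyclase, went from 1.61, 2.74, 0.466 and 0.541 CPM to 22.3, 17.4, 19.1 and 18.6 CPM (3.87 ± 0.47, adjusted p 0.00265), and its insulin samples lay close together, while without saline replicate 2 the log2 fold change was 4.49. Btg3, an antiproliferative gene, had 2.72, 1.96, 1.79 and 1.27 with saline and 21.5, 11.6, 9.05 and 7.96 CPM with insulin (2.69 ± 0.35, adjusted p 0.00305). Hapln1, a link protein of hyaluronan and proteoglycans, rose as well (3.06, adjusted p 0.00841), as did Cdc42ep5, an effector of the GTPase CDC42 (2.56, 0.00305), and these 5 genes were called in all 8 fits with a library left out. Pdk4, the kinase that shuts off pyruvate dehydrogenase, had 4.34, 4.12, 7.64 and 5.71 with saline and 26.98, 10.6, 64.2 and 24.9 CPM with insulin (2.54 ± 0.45, adjusted p 0.0150). Its lowest insulin value was that of insulin replicate 2, without which the log2 fold change was 2.82, and its highest that of insulin replicate 3, without which it was 1.93. Bag2, a co-chaperone of HSP70, had 1.19, 0.476, 1.23 and 1.08 with saline and 6.33, 1.92, 6.82 and 6.95 CPM with insulin, with insulin replicate 2 again low (2.46 ± 0.44, adjusted p 0.0150). Cd14, the co-receptor for lipopolysaccharide, rose from between 1.90 and 5.80 CPM to between 7.40 and 27.1 CPM (2.56, adjusted p 0.0127). The remaining rises were Npnt, an extracellular ligand of integrins (2.64, 0.0255), Mdm1, a microtubule-binding protein (2.54, 0.0147), Gadd45g, a stress-response gene (2.54, 0.0159, and 1.94 without insulin replicate 2), and Nr4a3, an orphan nuclear receptor. Nr4a3 was near the limit of detection with saline, at 0, 0, 0.303 and 0.212 CPM, and at 7.36, 0.987, 1.19 and 2.87 CPM with insulin (4.54 ± 1.00, adjusted p 0.0343), so the size of its fold change is poorly fixed (3.67 without insulin replicate 1, 5.37 without saline replicate 3). Pdk4 lost its call without saline replicate 1 (0.0595) or 4 (0.0609). Bag2 lost it without saline replicate 4 (0.0580). Cd14 lost it without saline replicate 4 (0.0553). Npnt lost it without saline replicate 1 (0.0791), 2 (0.0638) or 4 (0.0972), or insulin replicate 3 (0.0544) or 4 (0.0782). Mdm1 lost it without saline replicate 1 (0.0527) or 4 (0.0609), and without insulin replicates 1 and 2 together (0.0793, with a log2 fold change of 1.77). Gadd45g lost it without saline replicate 1 (0.0594), 3 (0.0560) or 4 (0.0639). Nr4a3 lost it without saline replicate 1 (0.0824), 2 (0.0691), 3 (0.0589) or 4 (0.101), or insulin replicate 1 (0.102) or 4 (0.0758), and with limma voom (0.0567) and a replicate block (0.0544).

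The 12 largest falls included a membrane progestin receptor, a transglutaminase and 3 clock-controlled genes. Klhdc7a (ENSMUSG00000078234, chr4:139960220-139968026, minus strand), a Kelch domain gene, had 33.4, 27.4, 29.3 and 45.04 with saline and 5.25, 3.69, 3.38 and 2.73 CPM with insulin. It had the smallest adjusted p of the named genes, and fell by 3.17 ± 0.23 on the log2 scale (adjusted p 0.000343). Paqr7, a membrane progestin receptor, had 57.1, 53.5, 74.2 and 85.8 with saline and 11.3, 13.6, 20.9 and 14.5 CPM with insulin (−2.17 ± 0.22, adjusted p 0.00197). Tgm1, transglutaminase 1, had 23.00, 16.4, 12.8 and 10.7 with saline and 2.49, 4.09, 1.39 and 2.32 CPM with insulin (−2.62 ± 0.34, adjusted p 0.00293), and Hsd3b2, a 3β-hydroxysteroid dehydrogenase, had 14.2, 9.24, 10.2 and 26.01 with saline and 3.36, 3.25, 2.21 and 2.39 CPM with insulin (−2.42 ± 0.33, adjusted p 0.00390). Hsd3b2 belongs to a cluster of near-identical genes, between which counts of short reads are uncertain. Dclk3, a kinase related to doublecortin (−3.16, adjusted p 0.00271), and Nmrk1, nicotinamide riboside kinase 1 (−1.70, 0.00265), fell in every fit with a library left out, as did Klhdc7a, Paqr7, Tgm1 and Hsd3b2. Lgr5, the Wnt co-receptor of hepatocytes around the central vein, had 10.3, 5.74, 8.29 and 6.66 with saline and 0.704, 3.08, 2.53 and 1.79 CPM with insulin (−1.94 ± 0.38, adjusted p 0.0226). Atp2b2, a plasma membrane calcium pump (−2.18, 0.0262), and Tnfsf10, the death ligand TRAIL (−1.83, 0.0303), fell from low levels. The clock-controlled genes Per3, Dbp and Noct complete the 12 and are described with the clock. Lgr5 lost its call without saline replicate 1 (0.0760), 3 (0.0630) or 4 (0.0639), or insulin replicate 4 (0.0705). It also lost it with a replicate block and an offset for transcript length together (0.07). Atp2b2 lost it without saline replicate 1 (0.0752), 3 (0.0924) or 4 (0.0803), or insulin replicate 1 (0.0511) or 3 (0.0590). Tnfsf10 lost it without saline replicate 1 (0.0680), 2 (0.0531), 3 (0.0792) or 4 (0.112), or insulin replicate 2 (0.0649) or 4 (0.0570).

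Targets of FoxO, which insulin is known to restrain, were more often higher than lower at 4 h. Of 30 genes in this list, edgeR called 7 higher and 0 lower (DESeq2 10 and 1, limma 10 and 2, nominally 15 and 3), median 0.35 (0.30 to 0.42). It was 0.42 without insulin replicate 2, with 6 and 1 called, and 0.22 without insulin replicates 1 and 2 together, with 7 and 2 called. For all genes tested the shares were 1.52% called higher and 1.63% lower (nominally 8.34% and 8.91%). Igfbp1 (ENSMUSG00000020429, chr11:7197782-7202546, plus strand), the secreted binding protein of insulin-like growth factors and a classical gene repressed by insulin, had 170.4, 203, 157 and 78.97 with saline and 788, 1575, 306 and 449 CPM with insulin. All insulin values exceeded all saline values, and insulin replicate 2 was the highest (2.35 ± 0.46, adjusted p 0.0225; 1.76 and 0.0303 without it). Txnip, an arrestin that limits glucose uptake, had 25.1, 27.5, 39.3 and 33.8 with saline and 56.1, 52.3, 74.1 and 63.04 CPM with insulin (0.97 ± 0.17, adjusted p 0.0131) and was called in all 8 fits with a library left out, though not with the 4 groups fitted together (0.0506). Cited2, a CBP/p300-binding coregulator, rose too (1.05, adjusted p 0.0150), and so did Ccng2, a cyclin of quiescent cells (1.36, 0.0374), though its groups overlapped. The other called targets were Cdkn1a, Pdk4 and Angptl4. Igfbp1 lost its call without saline replicate 1 (0.0743), 3 (0.0675) or 4 (0.0785). Cited2 lost it without saline replicate 1 (0.0546) or 4 (0.0639). Ccng2 lost it without saline replicate 1 (0.109), 2 (0.103), 3 (0.0624) or 4 (0.133), or insulin replicate 2 (0.0778), 3 (0.0731) or 4 (0.0785), and with a replicate block (0.0563). The FoxO genes called higher numbered 2 without saline replicate 1 or 4. In the FoxO list, those called lower numbered 2 without insulin replicate 1 and 1 without insulin replicate 2. Among 36 genes of insulin receptor signalling, edgeR called 0 higher and 2 lower (DESeq2 3 and 3, limma 2 and 3, nominally 4 and 7), median −0.06 (−0.12 to −0.03). It was −0.03 without insulin replicate 2, with 0 and 2 called. The 2 called were Pik3r1, the p85α regulatory subunit of phosphatidylinositol 3-kinase (−0.72 ± 0.15, adjusted p 0.0248, and −0.64 and 0.0431 without insulin replicate 2), and Phlpp1, a phosphatase that acts on AKT (−0.81 ± 0.14, adjusted p 0.0130, and −0.70 and 0.00990 without insulin replicate 2). Phlpp1 had 36.5, 37.5, 35.4 and 35.7 with saline and 24.01, 15.7, 21.5 and 21.5 CPM with insulin. Pik3r1 lost its call without saline replicate 1 (0.0662), 2 (0.0645), 3 (0.0623) or 4 (0.0833), or insulin replicate 3 (0.0544) or 4 (0.0847). Phlpp1 lost it without saline replicate 4 (0.0547). The insulin signalling genes called higher numbered 1 without insulin replicate 3. In the insulin signalling list, those called lower numbered 1 without saline replicate 1, 2 or 3 or insulin replicate 3 or 4 and 0 without saline replicate 4.

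Promoters were searched for letters that these pathways are known to use, and the promoters of Igfbp1, Txnip and Cry1 are printed because their genes rose and each holds such letters. Each is 300 bases around the transcription start, most of it upstream, from RefSeq on GRCm38.p6, 5′ to 3′ on the gene's strand: chr11:7197537-7197836, plus strand, for Igfbp1, chr3:96557707-96558006, plus strand, for Txnip, and chr10:85185005-85185304, minus strand, for Cry1. Capitals mark CAAAACA in Igfbp1 (base −108), GTAAACA in Txnip (base −121) and GTAAACA (base −95) and CACGTG (base −60) in Cry1.
Igfbp1: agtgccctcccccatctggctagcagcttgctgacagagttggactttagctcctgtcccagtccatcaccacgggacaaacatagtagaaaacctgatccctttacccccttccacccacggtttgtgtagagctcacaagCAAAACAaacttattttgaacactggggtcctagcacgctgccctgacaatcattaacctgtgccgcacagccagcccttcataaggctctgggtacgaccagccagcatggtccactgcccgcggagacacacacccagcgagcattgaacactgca
Txnip: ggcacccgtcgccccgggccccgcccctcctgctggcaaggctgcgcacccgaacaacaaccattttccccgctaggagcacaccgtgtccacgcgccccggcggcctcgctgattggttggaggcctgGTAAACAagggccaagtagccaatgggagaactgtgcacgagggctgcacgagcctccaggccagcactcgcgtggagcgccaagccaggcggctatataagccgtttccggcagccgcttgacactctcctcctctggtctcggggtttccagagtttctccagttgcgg
Cry1: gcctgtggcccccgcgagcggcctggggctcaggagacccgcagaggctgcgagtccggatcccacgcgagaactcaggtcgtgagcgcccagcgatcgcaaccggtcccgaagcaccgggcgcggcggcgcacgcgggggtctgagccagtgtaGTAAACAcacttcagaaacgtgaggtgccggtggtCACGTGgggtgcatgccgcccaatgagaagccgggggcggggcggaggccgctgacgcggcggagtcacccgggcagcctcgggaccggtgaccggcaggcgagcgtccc
Of the genes tested, 10287 had a promoter in the table, as did 162 of the 205 called higher and 178 of the 220 called lower. A gene can have several promoters, and shares count promoters. Searched on both strands, the FoxO letters GTAAACA were in 3.65% of all promoters, 2.95% of those of genes tested, 1.38% of those called higher and 2.35% of those called lower. The insulin response letters CAAAACA, which share AAACA with them, were in 6.28% of all promoters, 4.6% of those of genes tested, 7.37% of those called higher and 7.06% of those called lower. The E-box CACGTG was in 7.15% of all promoters, 9.65% of those of genes tested, 10.6% of those called higher and 9.8% of those called lower. The SREBP letters TCACNCCAC were in 1.24% of all promoters, 1.19% of those of genes tested, 0.922% of those called higher and 1.57% of those called lower, and the ATF4 letters TGATGNAA in 3.97% of all promoters, 2.44% of those of genes tested, 4.15% of those called higher and 2.75% of those called lower. The ERR letters TCAAGGTCA were in 0.423% of all promoters, 0.273% of those of genes tested, 0.461% of those called higher and 0 of the 255 of those called lower. These are matches of letters in a short window and say nothing of binding.

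Genes that glucocorticoids and cAMP are known to induce in the liver had the highest median of the lists. Of 31 genes, edgeR called 8 higher and 0 lower (DESeq2 11 and 0, limma 9 and 1, nominally 14 and 1), median 0.55 (0.45 to 0.70). It was 0.52 without insulin replicate 2, with 5 and 1 called. Shares over all genes tested were 1.52% called higher and 1.63% lower (nominally 8.34% and 8.91%). Crem, a cAMP-responsive factor whose short forms feed back on the pathway, had 17.6, 11.7, 12.7 and 12.1 with saline and 26.4, 28.6, 23.9 and 26.9 CPM with insulin (0.97 ± 0.15, adjusted p 0.00901). Lpin1, a phosphatidate phosphatase and coactivator induced in fasting, had 224, 485, 227 and 87.6 with saline and 802, 819, 903 and 1188 CPM with insulin (1.86 ± 0.40, adjusted p 0.0303; 1.92 and 0.0497 without insulin replicate 2). Its saline values spread widely and still lay below all insulin values. Cdkn1a, Gadd45g and Nr4a3 are members too, and so is Fos. Named after their values were seen, Fkbp5 (0.90, adjusted p 0.0498; 0.88, adjusted p 0.0881 without insulin replicate 2) and Zbtb16 (1.38, adjusted p 0.0424; 1.43, adjusted p 0.0634 without it), both glucocorticoid targets, completed the 8. The glucocorticoid and cAMP genes called higher numbered 5 without insulin replicate 2 or 3, 3 without saline replicate 3 or 4 or insulin replicate 4 and 2 without saline replicate 1. In the glucocorticoid and cAMP list, those called lower numbered 1 without insulin replicate 1 or 2. Crem lost its call without saline replicate 4 (0.0505). Lpin1 lost it without saline replicate 1 (0.103) or 3 (0.0979), or insulin replicate 3 (0.0520) or 4 (0.0814). Fos is also an immediate early gene. Of 38 such genes tested, edgeR called 4 higher and 0 lower (DESeq2 4 and 0, limma 4 and 0, nominally 8 and 0), median 0.43 (0.29 to 0.56). It was 0.50 without insulin replicate 2, with 3 and 0 called. Fosl2, a partner of JUN in AP-1, had 11.9, 16.9, 14.00 and 10.1 with saline and 39.9, 25.8, 21.9 and 26.4 CPM with insulin (1.11 ± 0.21, adjusted p 0.0196), and Klf6, a zinc finger factor, had 8.65, 13.5, 10.2 and 13.01 with saline and 25.4, 24.6, 17.7 and 20.8 CPM with insulin (0.96 ± 0.18, adjusted p 0.0179). Btg1, an antiproliferative gene, rose with insulin replicate 1 closest to the saline samples (48.1, 41.98, 54.5 and 58.1 with saline and 63.1, 106, 109.8 and 112 CPM with insulin; 0.95, adjusted p 0.0223). Fos itself was low, at 0.344, 0.420, 0.536 and 0.776 with saline and 1.14, 2.70, 1.66 and 4.58 CPM with insulin (2.28, adjusted p 0.0343). Fosl2 lost its call without saline replicate 1 (0.0753), 3 (0.0572) or 4 (0.0791). Klf6 lost it without saline replicate 1 (0.0596), 3 (0.0625) or 4 (0.0543). Btg1 lost it without saline replicate 1 (0.0752), 2 (0.0614), 3 (0.0589) or 4 (0.0554), or insulin replicate 4 (0.0695). Fos lost it without saline replicate 1 (0.102), 2 (0.0875), 3 (0.0959) or 4 (0.0730), or insulin replicate 2 (0.0620) or 4 (0.131), and with the 4 groups fitted together (0.0844). The immediate early genes called higher numbered 2 without saline replicate 2 or insulin replicate 4 and 0 without saline replicate 1, 3 or 4. Of 14 Krueppel-like factors, edgeR called 1 higher and 0 lower (DESeq2 1 and 1, limma 1 and 1, nominally 2 and 1), median 0.02 (−0.08 to 0.13). It was 0.09 without insulin replicate 2, with 1 and 0 called. Klf6 was the gene called. The Krueppel-like genes called higher numbered 0 without saline replicate 1, 3 or 4. In the Krueppel-like list, those called lower numbered 2 without insulin replicate 1.

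In glucose metabolism, edgeR called at most 2 genes of a list in each direction, and gluconeogenesis held more rises than falls nominally. Over all genes tested, 1.52% were called higher and 1.63% lower (nominally 8.34% and 8.91%). Of 33 genes of gluconeogenesis, edgeR called 2 higher and 1 lower (DESeq2 5 and 1, limma 5 and 2, nominally 8 and 2), median 0.16 (0.04 to 0.19). It was 0.04 without insulin replicate 2, with 2 and 2 called. Slc25a47 (ENSMUSG00000048856, chr12:108836046-108856815, plus strand), a mitochondrial carrier made mainly in liver, had 754, 611, 655 and 504 with saline and 1180.0, 1443, 1472 and 1439 CPM with insulin (1.13 ± 0.15, adjusted p 0.00318). Got1, the cytosolic aspartate aminotransferase, had 324, 514, 199.6 and 248 with saline and 852, 1112, 820.3 and 1078 CPM with insulin (1.59 ± 0.26, adjusted p 0.0106), and Aqp9, the channel by which hepatocytes take up glycerol, had 518, 485, 508 and 532 with saline and 392, 351, 376 and 329 CPM with insulin (−0.50 ± 0.11, adjusted p 0.0374). Got1 lost its call without saline replicate 4 (0.0514). Aqp9 lost it without saline replicate 1 (0.116), 2 (0.0594), 3 (0.109) or 4 (0.135), or insulin replicate 3 (0.0590) or 4 (0.125), and with total counts for scaling (0.0501) and no filter (0.0553). The gluconeogenesis genes called higher numbered 1 without saline replicate 4. In the gluconeogenesis list, those called lower numbered 2 without insulin replicate 2 and 0 without saline replicate 1, 2, 3 or 4 or insulin replicate 3 or 4. Pck1, the gatekeeping enzyme of the pathway, had 4716, 3798, 4372 and 4591 with saline and 2655, 4014, 3117 and 3025 CPM with insulin and did not pass with edgeR and all samples (−0.45 ± 0.16, adjusted p 0.165), its insulin replicate 2 lying within the saline range. It was called lower with limma voom and all samples (−0.52, 0.0217) and with edgeR without that library (−0.57, 0.0416). G6pc, the glucose-releasing phosphatase, had 256, 232, 299 and 259.9 with saline and 446, 609.8, 274 and 311 CPM with insulin and was not called (0.65 ± 0.23, adjusted p 0.165). Without insulin replicate 2, its highest sample, its log2 fold change was 0.39 (adjusted p 0.292). Of 27 genes of glycolysis and glucose uptake, edgeR called 1 higher and 2 lower (DESeq2 2 and 3, limma 1 and 3, nominally 3 and 5), median 0.04 (−0.02 to 0.09). It was 0.04 without insulin replicate 2, with 1 and 2 called. Both falls were in transporters: Slc2a2, the main hepatic glucose transporter GLUT2 (219, 257, 193 and 289 with saline and 133, 115, 157 and 154 CPM with insulin; −0.78 ± 0.16, adjusted p 0.0232), and Slc2a9, which carries urate (38.6, 42.2, 40.8 and 48.6 with saline and 24.9, 26.3, 17.9 and 17.4 CPM with insulin; −0.98 ± 0.16, adjusted p 0.0106). Aldoa, aldolase A, rose (0.63 ± 0.13, adjusted p 0.0292, and 0.52 and 0.0393 without insulin replicate 2). Slc2a2 lost its call without saline replicate 1 (0.0563), 2 (0.0606) or 4 (0.0861), or insulin replicate 1 (0.0529) or 4 (0.0570). Slc2a9 lost it without saline replicate 4 (0.0514). Aldoa lost it without saline replicate 1 (0.106), 3 (0.0876) or 4 (0.107), or insulin replicate 4 (0.0731). The glycolysis genes called higher numbered 0 without saline replicate 1, 3 or 4 or insulin replicate 4. In the glycolysis list, those called lower numbered 1 without saline replicate 1 or 2 or insulin replicate 1 or 4 and 0 without saline replicate 4. In glycogen metabolism, with 22 genes tested, edgeR called 0 higher and 1 lower (DESeq2 1 and 4, limma 1 and 5, nominally 2 and 6), median −0.14 (−0.17 to −0.11). It was −0.17 without insulin replicate 2, with 0 and 2 called. Stbd1, a glycogen-binding protein, was the gene called (98.5, 74.2, 94.5 and 90.8 with saline and 64.8, 63.9, 40.7 and 44.7 CPM with insulin; −0.74 ± 0.17, adjusted p 0.0424), and without insulin replicate 2 so was Phka2, a phosphorylase kinase subunit named after its value was seen (−0.63, adjusted p 0.0327). Stbd1 lost its call without saline replicate 1 (0.130), 2 (0.0510), 3 (0.120) or 4 (0.120), or insulin replicate 3 (0.0765) or 4 (0.125), and with a replicate block (0.0539). The glycogen genes called lower numbered 2 without insulin replicate 2 and 0 without saline replicate 1, 2, 3 or 4 or insulin replicate 4. Irs2, the receptor substrate, was not called with edgeR and all samples (36.1, 24.3, 26.4 and 32.5 with saline and 47.96, 49.00, 30.8 and 55.01 CPM with insulin; 0.61, adjusted p 0.122) but was with DESeq2 (0.62, 0.0391) and without insulin replicate 3 (0.76, 0.0355).

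Genes of lipid droplets, lipoproteins and lipogenesis held rises and falls. Among all genes tested, 1.52% were called higher and 1.63% lower (nominally 8.34% and 8.91%). Of 43 genes of lipid droplets, lipolysis and lipoproteins, edgeR called 5 higher and 1 lower (DESeq2 7 and 2, limma 7 and 2, nominally 9 and 3), median 0.02 (0.01 to 0.12). It was 0.12 without insulin replicate 2, with 4 and 1 called. Plin5, which tethers lipid droplets to mitochondria, had 79.5, 107, 98.6 and 73.8 with saline and 217, 333, 275 and 309.6 CPM with insulin (1.66 ± 0.17, adjusted p 0.00197), and Plin4, another droplet coat protein, had 5.71, 7.81, 6.99 and 10.1 with saline and 29.3, 13.6, 33.3 and 38.8 CPM with insulin (1.91 ± 0.29, adjusted p 0.00767). Both were called in all 8 fits with a library left out, and insulin replicate 2 was the lowest insulin sample for Plin4 and the highest for Plin5. Apoa4, a lipoprotein component, had 206, 428, 320.2 and 343 with saline and 684, 863, 736 and 532 CPM with insulin (1.12 ± 0.22, adjusted p 0.0215), and Angptl4, an inhibitor of lipoprotein lipase, had 138, 134, 200.2 and 123 with saline and 224, 261, 289 and 323 CPM with insulin (0.88 ± 0.17, adjusted p 0.0226). Abcg8, which with Abcg5 exports cholesterol into bile, fell (132, 138, 106 and 136 with saline and 84.8, 70.95, 87.1 and 81.01 CPM with insulin; −0.66 ± 0.13, adjusted p 0.0187). Cidec, a droplet fusion protein, was the fifth rise and is named after its value was seen (1.54, adjusted p 0.0466; 1.69, adjusted p 0.0515 without insulin replicate 2). Apoa4 lost its call without saline replicate 3 (0.0670) or 4 (0.0733). Angptl4 lost it without saline replicate 1 (0.0817), 2 (0.0629) or 4 (0.0882), or insulin replicate 4 (0.0705). Abcg8 lost it without saline replicate 1 (0.0616), 2 (0.0527) or 4 (0.0728), or insulin replicate 4 (0.0644). The lipid droplet genes called higher numbered 3 without saline replicate 1 or 3 or insulin replicate 4 and 2 without saline replicate 4. In the lipid droplet list, those called lower numbered 2 without insulin replicate 1 and 0 without saline replicate 1, 2 or 4 or insulin replicate 4. Of 38 genes of de novo lipogenesis, edgeR called 2 higher and 1 lower (DESeq2 3 and 2, limma 3 and 2, nominally 7 and 6), median 0.02 (−0.01 to 0.03). It was 0.02 without insulin replicate 2, with 1 and 0 called. The rises were in Lpin1 and in Insig2, which retains SREBP in the endoplasmic reticulum (407, 696, 298 and 256 with saline and 949.6, 1292, 921 and 729 CPM with insulin; 1.23 ± 0.29, adjusted p 0.0476), and the fall was in Mlxipl, the glucose-sensing factor ChREBP (75.9, 49.2, 70.1 and 81.4 with saline and 36.7, 31.96, 43.5 and 45.7 CPM with insulin; −0.81 ± 0.17, adjusted p 0.0319). Insig2 lost its call without saline replicate 1 (0.140), 3 (0.140) or 4 (0.140), or insulin replicate 1 (0.0740), 2 (0.0986), 3 (0.0712) or 4 (0.0677), and with the length offset (0.0522). Mlxipl lost it without saline replicate 1 (0.0992), 3 (0.0875) or 4 (0.112), or insulin replicate 1 (0.0646), 2 (0.0628) or 4 (0.0570), and with total counts for scaling (0.0543). The lipogenesis genes called higher numbered 1 without saline replicate 4 or insulin replicate 1, 2 or 3 and 0 without saline replicate 1 or 3 or insulin replicate 4. In the lipogenesis list, those called lower numbered 0 without saline replicate 1, 3 or 4 or insulin replicate 2 or 4. Srebf1, the SREBP-1 gene, had 55.1, 38.3, 25.1 and 66.6 with saline and 61.5, 29.2, 28.1 and 43.9 CPM with insulin (−0.18, adjusted p 0.815), and Fasn, fatty acid synthase, had 156, 206, 132 and 132 with saline and 154, 78.5, 89.2 and 80.4 CPM with insulin (−0.64, 0.181). Neither was called with edgeR and all samples, but Fasn was called lower with limma voom (−0.70, 0.0434) and without insulin replicate 1 (−0.92, 0.0244).

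Cholesterol genes held rises and falls, with more falls than rises nominally. The nominal shares over all genes tested were 8.34% higher and 8.91% lower, and the called shares 1.52% and 1.63%. Of 34 genes of cholesterol synthesis and uptake, edgeR called 2 higher and 2 lower (DESeq2 2 and 4, limma 3 and 4, nominally 5 and 10), median −0.24 (−0.36 to −0.08). It was −0.15 without insulin replicate 2, with 2 and 2 called. Pmvk, phosphomevalonate kinase, had 8.25, 6.13, 5.87 and 6.11 with saline and 23.98, 16.2, 31.4 and 38.8 CPM with insulin (2.07 ± 0.25, adjusted p 0.00265) and was called in all 8 fits with a library left out. Fdft1, squalene synthase, was 1 of the falls (53.8, 30.7, 50.1 and 53.6 with saline and 30.2, 24.2, 26.5 and 25.9 CPM with insulin; −0.82 ± 0.18, adjusted p 0.0321). Insig2 was the other rise. Without insulin replicate 2, Hsd17b7, of a late step, was called higher (0.59, adjusted p 0.0402) and is named after its value was seen. Fdft1 lost its call without saline replicate 1 (0.105), 3 (0.0959) or 4 (0.117), or insulin replicate 2 (0.0653), 3 (0.0623) or 4 (0.0914), and with the 4 groups fitted together (0.108). Insig2 lost it without saline replicate 1 (0.140), 3 (0.140) or 4 (0.140), or insulin replicate 1 (0.0740), 2 (0.0986), 3 (0.0712) or 4 (0.0677), and with the length offset (0.0522). The cholesterol genes called higher numbered 1 without saline replicate 1, 3 or 4 or insulin replicate 1, 3 or 4. In the cholesterol list, those called lower numbered 5 without saline replicate 2, 1 without saline replicate 3 or insulin replicate 3 or 4 and 0 without saline replicate 1 or 4. Of 29 genes of bile acid synthesis and transport, edgeR called 0 higher and 1 lower (DESeq2 0 and 2, limma 0 and 1, nominally 0 and 4), median −0.17 (−0.19 to −0.14). It was −0.17 without insulin replicate 2, with 0 and 1 called. That gene was Nr5a2 (ENSMUSG00000026398, chr1:136842571-136960448, minus strand), the nuclear receptor LRH-1, which activates bile acid synthesis. It had 87.4, 84.5, 81.9 and 83.8 with saline and 41.3, 49.9, 48.3 and 45.9 CPM with insulin (−0.87 ± 0.11, adjusted p 0.00271), with narrow groups that did not overlap, and was called in all 8 fits with a library left out. The bile acid genes called higher numbered 1 without saline replicate 2. Of 53 genes of fatty acid oxidation and ketogenesis, edgeR called 1 higher and 0 lower (DESeq2 2 and 1, limma 2 and 0, nominally 2 and 1), median 0.04 (−0.02 to 0.10). It was 0.09 without insulin replicate 2, with 1 and 0 called. The gene was Pdk4, which lost its call without saline replicate 1 (0.0595) or 4 (0.0609). The fatty acid oxidation genes called higher numbered 0 without saline replicate 1 or 4. In the fatty acid oxidation list, those called lower numbered 1 without saline replicate 3. Cpt1a, the entry step of fatty acids into mitochondria, had 1195, 1651, 1086 and 1099.5 with saline and 1174, 729.7, 942 and 1003 CPM with insulin (−0.39, adjusted p 0.301) and was not called.

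Amino acid catabolism held more rises than falls. In all genes tested, 1.52% were called higher and 1.63% lower (nominally 8.34% and 8.91%). Of 74 genes of amino acid breakdown and the urea cycle, edgeR called 6 higher and 0 lower (DESeq2 9 and 0, limma 7 and 1, nominally 9 and 3), median 0.09 (0.02 to 0.13). It was 0.02 without insulin replicate 2, with 5 and 1 called. Agxt (ENSMUSG00000026272, chr1:93135240-93145421, plus strand), which converts glyoxylate to glycine in peroxisomes, had 228, 232, 211 and 253 with saline and 507, 654, 886 and 958 CPM with insulin (1.70 ± 0.19, adjusted p 0.00265). Slc25a15, the mitochondrial ornithine carrier of the urea cycle, had 525, 706, 500.2 and 525 with saline and 1389, 1597, 1029 and 1073 CPM with insulin (1.17 ± 0.18, adjusted p 0.00718). Both were called in all 8 fits with a library left out. Sds, serine dehydratase, had 50.1, 72.1, 47.5 and 48.7 with saline and 92.02, 152, 93.1 and 141 CPM with insulin (1.13 ± 0.20, adjusted p 0.0152). Got1 rose as well, and so did Aass, of lysine breakdown (1.29, adjusted p 0.0238; 1.16, adjusted p 0.0515 without insulin replicate 2), and Ddc, an amino acid decarboxylase (0.74, adjusted p 0.0161), both named after their values were seen. Without insulin replicate 2 the fall was in Bckdk, the kinase that inhibits breakdown of branched-chain amino acids (−0.77, adjusted p 0.0416), also named after its value was seen. Sds lost its call without saline replicate 1 (0.0596), 3 (0.0562) or 4 (0.0639), or insulin replicate 4 (0.0517), and with the 4 groups fitted together (0.0746). Got1 lost it without saline replicate 4 (0.0514). The amino acid breakdown genes called higher numbered 3 without insulin replicate 4 and 2 without saline replicate 4. In the amino acid breakdown list, those called lower numbered 1 without insulin replicate 2. Of 29 transporters of amino acids, edgeR called 3 higher and 3 lower (DESeq2 4 and 4, limma 4 and 4, nominally 6 and 7), median 0.05 (0.02 to 0.14). It was 0.07 without insulin replicate 2, with 3 and 3 called. Slc25a22, a mitochondrial glutamate carrier (309.8, 314, 288 and 254 with saline and 513, 583, 516 and 558 CPM with insulin; 0.90 ± 0.12, adjusted p 0.00334), and Slc16a10, a carrier of aromatic amino acids (188, 223, 195 and 181 with saline and 339, 339, 421 and 393 CPM with insulin; 0.92 ± 0.13, adjusted p 0.00397), rose in every fit with a library left out. Slc36a4, a transporter of proline and tryptophan, was the third rise (0.85 ± 0.19, adjusted p 0.0343, and 0.96 and 0.0249 without insulin replicate 2). Falling were Slc36a1, a lysosomal proton-coupled carrier (38.4, 36.6, 37.5 and 49.3 with saline and 24.9, 11.2, 16.2 and 14.96 CPM with insulin; −1.26 ± 0.22, adjusted p 0.0131), Slc6a6, the taurine transporter (−0.88 ± 0.15, adjusted p 0.0127, and −0.82 and 0.0263 without insulin replicate 2), and Slc38a3, a glutamine transporter (−0.62 ± 0.13, adjusted p 0.0315, and −0.61 and 0.0458 without insulin replicate 2). Slc36a1 lost its call without saline replicate 4 (0.0554). Slc6a6 lost it without saline replicate 4 (0.0505). Slc38a3 lost it without saline replicate 1 (0.0865), 2 (0.0702) or 4 (0.122), or insulin replicate 3 (0.0630) or 4 (0.0881). Slc36a4 lost it without saline replicate 1 (0.109), 2 (0.0706) or 4 (0.134), or insulin replicate 3 (0.0677) or 4 (0.104), and with total counts for scaling (0.0557). The amino acid transporter genes called lower numbered 0 without saline replicate 4. Of 48 genes of the integrated stress response, which amino acid shortage is known to start, edgeR called 0 higher and 0 lower (DESeq2 4 and 0, limma 4 and 0, nominally 10 and 2), median 0.04 (0.04 to 0.12). It was 0.08 without insulin replicate 2, with 1 and 0 called. The stress response genes called higher numbered 2 without insulin replicate 3 and 1 without insulin replicate 2. Its most abundant members had 366, 351, 416 and 325 with saline and 487, 500.1, 399 and 464 CPM with insulin for Atf5, a stress transcription factor (0.34, adjusted p 0.190), and 247, 267, 294 and 254 with saline and 291, 247, 251 and 296 CPM with insulin for Aars, alanyl-tRNA synthetase (0.03, 0.926). Eprs, a synthetase named after its value was seen, was the gene called without insulin replicate 2 (0.60, adjusted p 0.0322).

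Among clock genes, Arntl and Cry1 rose and Per3, Dbp and Noct fell, in livers taken at the same time of day. Arntl (ENSMUSG00000055116, chr7:113207465-113314126, plus strand), which encodes BMAL1, the activator of the clock, had 2.35, 4.51, 5.80 and 3.69 with saline and 17.1, 21.4, 24.9 and 24.3 CPM with insulin. The lowest insulin sample lay well above the highest saline sample (2.42 ± 0.25, adjusted p 0.00197). Cry1, a repressor of BMAL1, had 10.5, 9.52, 5.89 and 8.94 with saline and 16.5, 18.7, 13.4 and 14.9 CPM with insulin (0.87 ± 0.19, adjusted p 0.0374). Per3, another repressor, fell from 11.03, 11.96, 5.59 and 20.9 CPM to 1.95, 2.82, 1.97 and 1.13 CPM (−2.66 ± 0.39, adjusted p 0.00613). Dbp, a clock output factor that BMAL1 activates through E-boxes, had 31.02, 34.6, 14.2 and 48.9 with saline and 9.96, 7.90, 4.70 and 7.33 CPM with insulin (−2.11 ± 0.34, adjusted p 0.00924), and Noct, a rhythmic phosphatase that acts on NADPH, had 40.96, 35.3, 38.5 and 41.8 with saline and 20.5, 8.80, 7.64 and 4.37 CPM with insulin (−1.92 ± 0.37, adjusted p 0.0197). For Per3 and Dbp, saline replicate 3 was the lowest saline sample and still above all insulin samples. Arntl, Per3 and Dbp were called in all 8 fits with a library left out. Cry1 lost its call without saline replicate 1 (0.0641), 2 (0.0680), 3 (0.0838) or 4 (0.117), or insulin replicate 1 (0.0635), 2 (0.0744) or 4 (0.0823). Noct lost it without saline replicate 1 (0.0618), 3 (0.0518) or 4 (0.0698), or insulin replicate 2 (0.0515). Over the 24 clock genes tested, edgeR called 2 higher and 3 lower (DESeq2 3 and 5, limma 3 and 5, nominally 5 and 7), median −0.12 (−0.30 to 0.01). It was −0.05 without insulin replicate 2, with 1 and 2 called. Across all genes tested, 1.52% were called higher and 1.63% lower (nominally 8.34% and 8.91%). The clock genes called higher numbered 1 without saline replicate 1, 2, 3 or 4 or insulin replicate 1, 2 or 4. In the clock list, those called lower numbered 5 without insulin replicate 1.

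**Figure D3:**
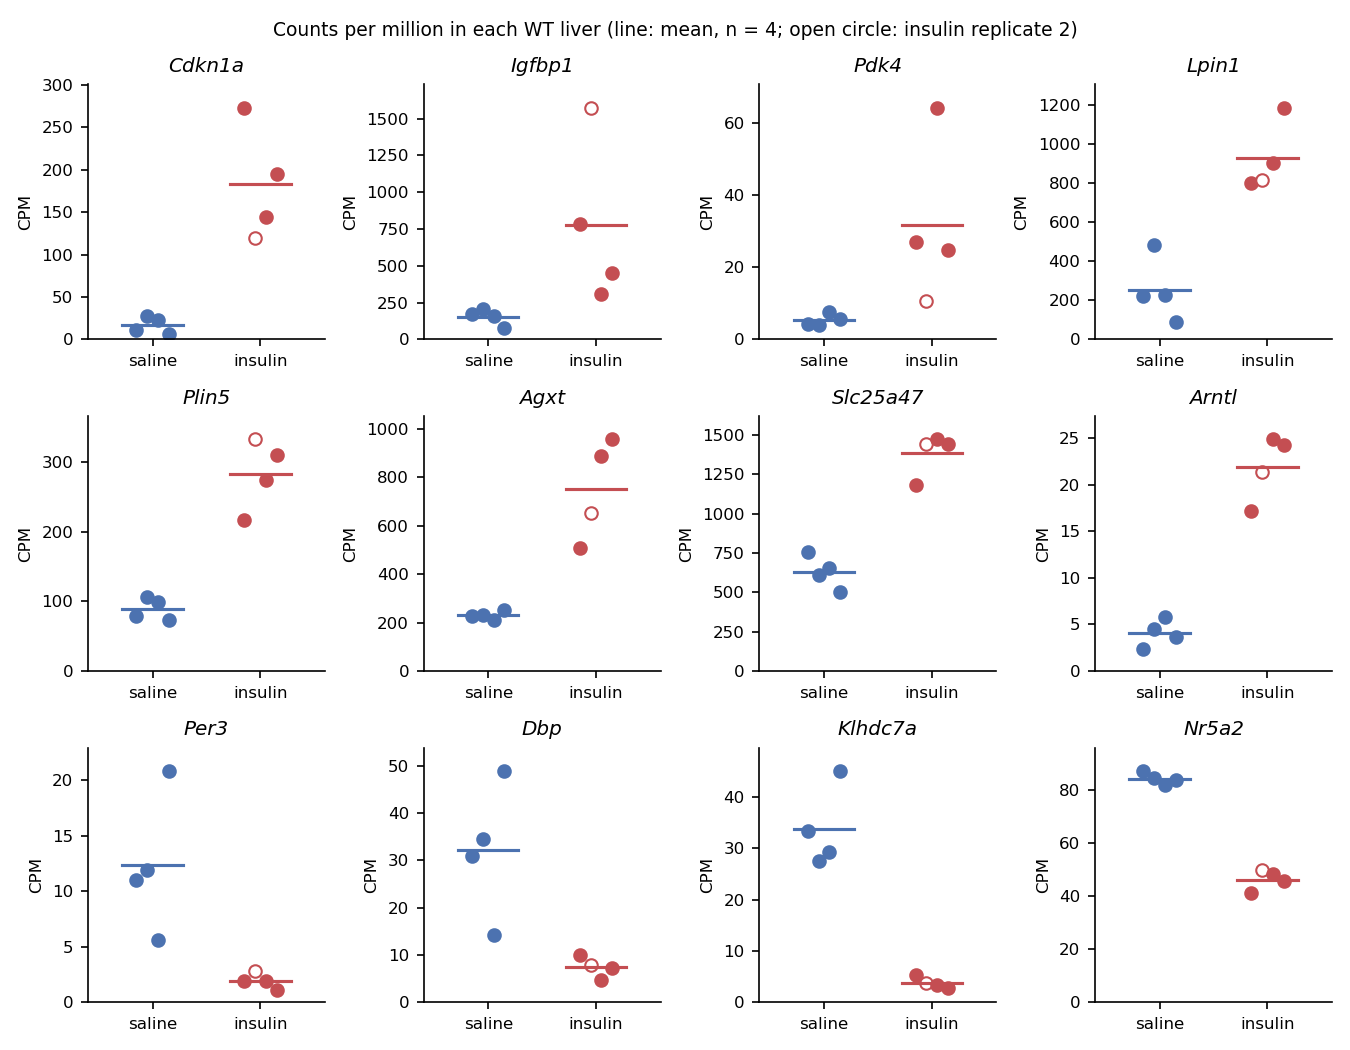
CPM of 12 genes in each of the 4 saline and 4 insulin samples (linear axes from 0; points are samples, lines are group means, the open circle is insulin replicate 2): Cdkn1a, Igfbp1, Pdk4, Lpin1, Plin5, Agxt, Slc25a47 and Arntl, which rose, and Per3, Dbp, Klhdc7a and Nr5a2, which fell. In all 12 the groups do not overlap, which was required of those taken from the largest rises and falls. The same held for 198 of the 205 genes called higher and 218 of the 220 called lower. For Pdk4 and Igfbp1 insulin replicate 2 is the lowest and the highest insulin sample.

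Ribosomal proteins, oxidative phosphorylation and the proteasome had medians above 0 that were smaller without insulin replicate 2, and at most 1 call with edgeR. All genes tested had 1.52% called higher and 1.63% lower (nominally 8.34% and 8.91%). Of 80 cytosolic ribosomal proteins, with a median exon length of 1775.5 bases against 4320 for all genes tested, edgeR called 0 higher and 0 lower (DESeq2 1 and 0, limma 1 and 0, nominally 13 and 0), median 0.23 (0.10 to 0.31). It was 0.10 without insulin replicate 2, with 0 and 0 called. Rplp0, of the ribosomal stalk, had 496, 363, 385 and 373 with saline and 504, 682, 387 and 403 CPM with insulin (0.29, adjusted p 0.464), and Rps2 had 444, 375, 361 and 419 with saline and 469, 527, 382 and 469 CPM with insulin (0.21, 0.456). In both, insulin replicate 2 was the highest sample. Of 75 subunits of oxidative phosphorylation, listed only for comparison and 1756 bases long at the median, edgeR called 0 higher and 0 lower (DESeq2 3 and 0, limma 1 and 0, nominally 26 and 0), median 0.29 (0.17 to 0.38). It was 0.17 without insulin replicate 2, with 0 and 0 called. Atp5b and Atp5a1, subunits of ATP synthase, were not called (948, 919.9, 938 and 948 with saline and 1082, 1287, 957 and 1068 CPM with insulin, 0.23, adjusted p 0.379; 835, 912, 824 and 905 with saline and 995, 1112, 840.3 and 951 CPM with insulin, 0.17, 0.535). Of 47 proteasome genes, 2820 bases long at the median, edgeR called 1 higher and 0 lower (DESeq2 3 and 0, limma 1 and 0, nominally 10 and 0), median 0.22 (0.14 to 0.27). It was 0.14 without insulin replicate 2, with 1 and 0 called. The call was Psmd9, an assembly chaperone of the proteasome base (47.2, 50.1, 46.04 and 42.3 with saline and 64.4, 80.7, 72.6 and 79.1 CPM with insulin; 0.68 ± 0.12, adjusted p 0.0131). Psmd9 lost its call without saline replicate 4 (0.0554), which left no proteasome gene called. The nominal rises went from 13 to 5 for ribosomal proteins, from 26 to 7 for oxidative phosphorylation and from 10 to 6 for the proteasome without insulin replicate 2. With an offset that removes the length trend of each library they numbered 7, 12 and 8, and the medians were 0.12 for ribosomal proteins, 0.17 for oxidative phosphorylation and 0.12 for the proteasome. The part of the length shift in these medians beyond that was not tested.

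Other lists of protein handling gave 0 to 2 calls with edgeR. The background of all genes tested was 1.52% called higher and 1.63% lower (nominally 8.34% and 8.91%). Of 54 translation factors, edgeR called 1 higher and 0 lower (DESeq2 3 and 2, limma 3 and 0, nominally 9 and 3), median 0.17 (0.07 to 0.23). It was 0.07 without insulin replicate 2, with 1 and 0 called. The gene was Eif1, which helps to select start codons (162, 138, 170.5 and 156 with saline and 221, 292, 224 and 259 CPM with insulin; 0.67 ± 0.13, adjusted p 0.0206). Of 121 genes of ribosome biogenesis, edgeR called 1 higher and 0 lower (DESeq2 4 and 0, limma 2 and 0, nominally 10 and 4), median 0.05 (0.00 to 0.08). It was 0.05 without insulin replicate 2, with 0 and 0 called. The call was in Polr1d, a subunit of RNA polymerases I and III (0.68 ± 0.15, adjusted p 0.0356, and 0.61 and 0.0654 without insulin replicate 2). Eif1 lost its call without saline replicate 1 (0.0680), 2 (0.0563), 3 (0.0504) or 4 (0.0776), or insulin replicate 4 (0.0677). Polr1d lost it without saline replicate 1 (0.0662), 2 (0.0926), 3 (0.110) or 4 (0.112), or insulin replicate 1 (0.0684), 2 (0.0654) or 4 (0.0677), and with a replicate block (0.0523). The translation factor genes called higher numbered 0 without saline replicate 1, 2, 3 or 4 or insulin replicate 4. In the translation factor list, those called lower numbered 1 without insulin replicate 4. The ribosome biogenesis genes called higher numbered 0 without saline replicate 1, 2, 3 or 4 or insulin replicate 1, 2 or 4. Among 66 genes of endoplasmic reticulum folding, edgeR called 0 higher and 0 lower (DESeq2 1 and 0, limma 1 and 0, nominally 7 and 1), median 0.17 (0.05 to 0.27). It was 0.10 without insulin replicate 2, with 0 and 0 called. The endoplasmic reticulum genes called higher numbered 1 without insulin replicate 3. Hspa5, the chaperone BiP, had 949.9, 819, 723 and 703 with saline and 2473, 1391, 875 and 768 CPM with insulin, highest in insulin replicates 1 and 2 (0.79, adjusted p 0.227), and P4hb, a disulfide isomerase, had 1536, 1615, 1150.1 and 1423 with saline and 2012, 2203, 1133 and 1307 CPM with insulin (0.22, 0.659). Of 58 genes of autophagy and lysosomes, edgeR called 2 higher and 0 lower (DESeq2 4 and 2, limma 4 and 2, nominally 10 and 3), median 0.13 (0.09 to 0.16). It was 0.09 without insulin replicate 2, with 2 and 0 called. Depp1, a FoxO-responsive regulator of autophagy, had 34.6, 25.1, 24.8 and 27.8 with saline and 88.4, 135, 63.4 and 82.6 CPM with insulin (1.72 ± 0.22, adjusted p 0.00277) and was called in all 8 fits with a library left out. Uvrag, of the Beclin complex, rose by less (0.56 ± 0.12, adjusted p 0.0299, and 0.56 and 0.04000 without insulin replicate 2). Uvrag lost its call without saline replicate 1 (0.102), 2 (0.0575), 3 (0.0815) or 4 (0.113), or insulin replicate 1 (0.0534) or 4 (0.0782), and with a replicate block (0.0677). The autophagy genes called higher numbered 1 without saline replicate 1, 2, 3 or 4 or insulin replicate 1 or 4.

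Among interferon-stimulated genes, those called were all lower, and only Ddx58 kept its call with each library left out. Of 60, edgeR called 0 higher and 3 lower (DESeq2 0 and 7, limma 0 and 5, nominally 2 and 10), median −0.26 (−0.33 to −0.17). It was −0.19 without insulin replicate 2, with 0 and 1 called. Of all genes tested, 1.52% were called higher and 1.63% lower (nominally 8.34% and 8.91%). Ddx58, which encodes the RNA sensor RIG-I, had 34.1, 33.3, 34.4 and 35.6 with saline and 17.8, 10.3, 13.8 and 16.2 CPM with insulin (−1.24 ± 0.16, adjusted p 0.00305) and was called in all 8 fits with a library left out. Parp14, a mono-ADP-ribosyltransferase, had 62.4, 66.9, 60.4 and 57.4 with saline and 22.4, 18.9, 35.2 and 45.2 CPM with insulin (−1.02 ± 0.24, adjusted p 0.0422), with insulin replicates 1 and 2 lowest, and Tap1, the peptide transporter of antigen presentation, had 22.1, 22.1, 24.5 and 28.2 with saline and 13.02, 13.2, 13.9 and 19.01 CPM with insulin (−0.71 ± 0.16, adjusted p 0.0348). Parp14 lost its call without saline replicate 1 (0.107), 2 (0.102), 3 (0.102) or 4 (0.107), or insulin replicate 1 (0.0843), 2 (0.0598) or 3 (0.0590), and with total counts for scaling (0.0635). Tap1 lost it without saline replicate 1 (0.0761), 2 (0.0580), 3 (0.10) or 4 (0.140), or insulin replicate 1 (0.0657), 2 (0.0653) or 3 (0.0731), and with total counts for scaling (0.0573). The interferon-stimulated genes called lower numbered 1 without saline replicate 1, 2, 3 or 4 or insulin replicate 1, 2 or 3. The median of acute phase genes took both signs. Of 44, edgeR called 1 higher and 0 lower (DESeq2 2 and 0, limma 1 and 0, nominally 5 and 1), median 0.11 (−0.20 to 0.30). It was −0.20 without insulin replicate 2, with 1 and 0 called. The rise was that of Cd14. The acute phase genes called higher numbered 2 without insulin replicate 3 and 0 without saline replicate 4. Cd14 lost its call without saline replicate 4 (0.0553). Among 43 secreted regulators of growth and metabolism, edgeR called 6 higher and 2 lower (DESeq2 6 and 2, limma 6 and 2, nominally 8 and 4), median 0.08 (−0.02 to 0.08). It was −0.02 without insulin replicate 2, with 6 and 1 called. Inhbb, the βB subunit of activins, had 3.86, 3.81, 4.89 and 3.39 with saline and 16.2, 15.9, 8.11 and 19.6 CPM with insulin (1.91 ± 0.26, adjusted p 0.00372), and Lepr, the leptin receptor, which liver also sheds, had 7.64, 12.8, 7.75 and 8.25 with saline and 21.03, 20.2, 21.6 and 22.4 CPM with insulin (1.23 ± 0.18, adjusted p 0.00597). Both were called in all 8 fits with a library left out, as was the fall of Tsku, a secreted hepatokine (71.2, 110.3, 124 and 84.3 with saline and 56.9, 37.5, 34.2 and 38.8 CPM with insulin; −1.22 ± 0.21, adjusted p 0.0121). Lepr lost its call with the 4 groups fitted together (0.157). Igfals, which stabilises circulating IGF-1, fell by less (−0.72 ± 0.17, adjusted p 0.0493, and −0.66 and 0.0995 without insulin replicate 2). The other rises were Igfbp1, Angptl4 and, named after their values were seen, Agt, angiotensinogen (0.90, adjusted p 0.0374), and Fndc4 (0.54, adjusted p 0.0498). Igfbp1 lost its call without saline replicate 1 (0.0743), 3 (0.0675) or 4 (0.0785). Angptl4 lost it without saline replicate 1 (0.0817), 2 (0.0629) or 4 (0.0882), or insulin replicate 4 (0.0705). Igfals lost it without saline replicate 1 (0.0752), 2 (0.0809), 3 (0.131) or 4 (0.156), or insulin replicate 1 (0.0916), 2 (0.0995) or 4 (0.0705), and with the 4 groups fitted together (0.0511) and total counts for scaling (0.0929). The secreted regulator genes called higher numbered 3 without saline replicate 2 or 3 or insulin replicate 4 and 2 without saline replicate 1 or 4. In the secreted regulator list, those called lower numbered 1 without saline replicate 1, 2, 3 or 4 or insulin replicate 1, 2 or 4.

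Nuclear receptors and genes of xenobiotic metabolism held rises and falls, and more falls than rises nominally. All genes tested also held more nominal falls (8.91%) than rises (8.34%), with 1.52% called higher and 1.63% lower. Of 47 nuclear receptors, edgeR called 2 higher and 2 lower (DESeq2 5 and 4, limma 4 and 5, nominally 5 and 12), median −0.14 (−0.18 to −0.10). It was −0.15 without insulin replicate 2, with 2 and 2 called. Nr3c2, the mineralocorticoid receptor, had 20.04, 22.9, 22.5 and 22.3 with saline and 11.1, 8.51, 7.98 and 7.33 CPM with insulin (−1.33 ± 0.16, adjusted p 0.00265), and Nr1i2, the xenobiotic receptor PXR, had 69.2, 74.8, 71.7 and 66.6 with saline and 117, 106, 123 and 123 CPM with insulin (0.73 ± 0.11, adjusted p 0.00577). Both groups were narrow and both genes were called in all 8 fits with a library left out. Nr4a3 and Nr5a2 were the others called. Nr4a3 lost its call without saline replicate 1 (0.0824), 2 (0.0691), 3 (0.0589) or 4 (0.101), or insulin replicate 1 (0.102) or 4 (0.0758), and with limma voom (0.0567) and a replicate block (0.0544). The nuclear receptor genes called higher numbered 1 without saline replicate 1, 2, 3 or 4 or insulin replicate 1 or 4. In the nuclear receptor list, those called lower numbered 4 without insulin replicate 3. Of 47 cytochrome P450 and xenobiotic genes, edgeR called 2 higher and 2 lower (DESeq2 3 and 3, limma 2 and 4, nominally 5 and 9), median −0.13 (−0.17 to −0.08). It was −0.08 without insulin replicate 2, with 2 and 2 called. Cyp26a1, which degrades retinoic acid (1.11, 1.23, 1.47 and 1.76 with saline and 2.38, 5.23, 4.65 and 4.15 CPM with insulin; 1.56 ± 0.31, adjusted p 0.0227), rose with Nr1i2, and Cyp2u1, an orphan P450 (15.4, 13.4, 14.8 and 12.96 with saline and 5.60, 3.57, 8.98 and 6.73 CPM with insulin; −1.18 ± 0.24, adjusted p 0.0258), fell with Alas1, the first enzyme of haem synthesis (431, 359, 211 and 425 with saline and 205, 191, 140.4 and 180.1 CPM with insulin; −0.99 ± 0.22, adjusted p 0.0328). Without insulin replicate 2 Ahr, the dioxin receptor, named after its value was seen, was called lower (−0.81, adjusted p 0.0231). Cyp26a1 lost its call without saline replicate 1 (0.0752), 2 (0.0594), 3 (0.0637) or 4 (0.0580), or insulin replicate 3 (0.0532) or 4 (0.0677). Cyp2u1 lost it without saline replicate 1 (0.0776), 2 (0.0530), 3 (0.0767) or 4 (0.0733), or insulin replicate 1 (0.0532) or 4 (0.0677). Alas1 lost it without saline replicate 1 (0.106), 2 (0.0710) or 4 (0.115), or insulin replicate 2 (0.0558), 3 (0.0694) or 4 (0.0881), and with the length offset (0.0522). The xenobiotic genes called higher numbered 1 without saline replicate 1, 2, 3 or 4 or insulin replicate 3 or 4. In the xenobiotic list, those called lower numbered 1 without saline replicate 3 or insulin replicate 1 or 3 and 0 without saline replicate 1, 2 or 4 or insulin replicate 4. Of 42 cell cycle genes, edgeR called 2 higher and 1 lower (DESeq2 2 and 2, limma 2 and 2, nominally 5 and 6), median −0.18 (−0.23 to −0.05). It was −0.23 without insulin replicate 2, with 1 and 1 called. Beside the inhibitor Cdkn1a and Ccng2, the gene called was Ccnd1, cyclin D1, which fell (36.5, 36.8, 33.9 and 16.2 with saline and 12.04, 10.3, 15.9 and 11.3 CPM with insulin; −1.32 ± 0.25, adjusted p 0.0183), saline replicate 4 lying near the insulin range. Ccnd1 lost its call without saline replicate 1 (0.0644) or 3 (0.0572), or insulin replicate 4 (0.0612). Ccng2 lost it without saline replicate 1 (0.109), 2 (0.103), 3 (0.0624) or 4 (0.133), or insulin replicate 2 (0.0778), 3 (0.0731) or 4 (0.0785), and with a replicate block (0.0563). The cell cycle genes called higher numbered 1 without saline replicate 1, 2, 3 or 4 or insulin replicate 2, 3 or 4. In the cell cycle list, those called lower numbered 2 without saline replicate 2 and 0 without saline replicate 1 or 3 or insulin replicate 4. Of 41 genes of antioxidant defence, edgeR called 1 higher and 0 lower (DESeq2 2 and 2, limma 1 and 2, nominally 5 and 3), median 0.08 (−0.01 to 0.06). It was 0.03 without insulin replicate 2, with 1 and 0 called. The rise was in Srxn1, sulfiredoxin, an NRF2 target, which had 60.05, 57.9, 71.3 and 52.3 with saline and 105, 87.8, 102 and 115 CPM with insulin (0.76 ± 0.13, adjusted p 0.0133). Srxn1 lost its call without saline replicate 4 (0.0553).

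**Figure D4:**
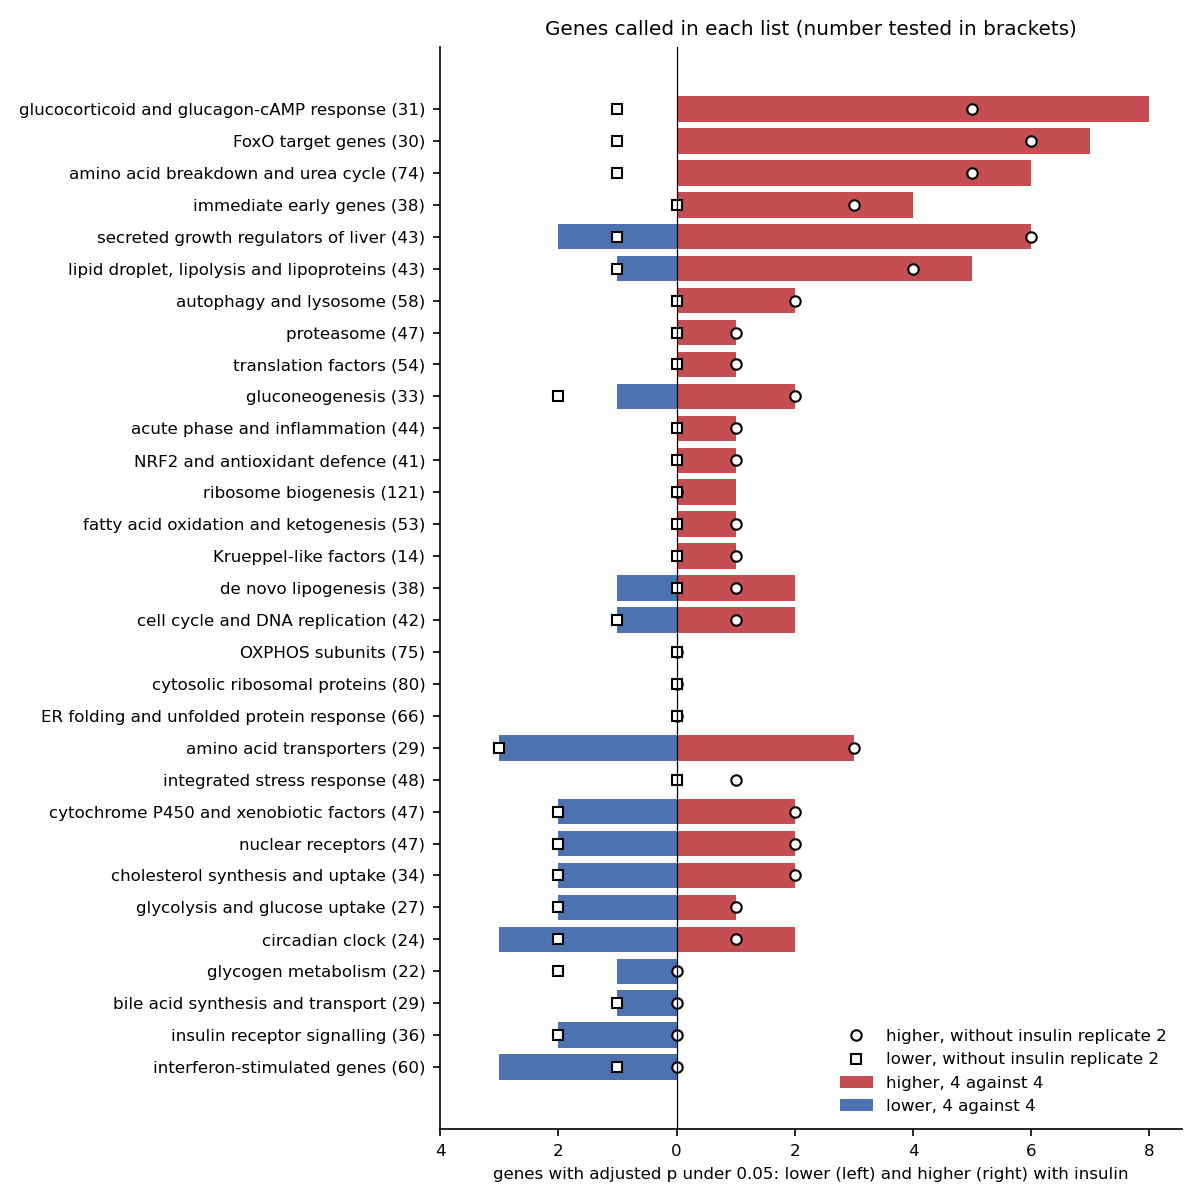
Number of genes of each list called higher (right) and lower (left) at an adjusted p under 0.05, from all 8 samples (bars) and without insulin replicate 2 (circles and squares). The longest bars to the right are those of the glucocorticoid and cAMP list (8) and the FoxO list (7).

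**Figure D5:**
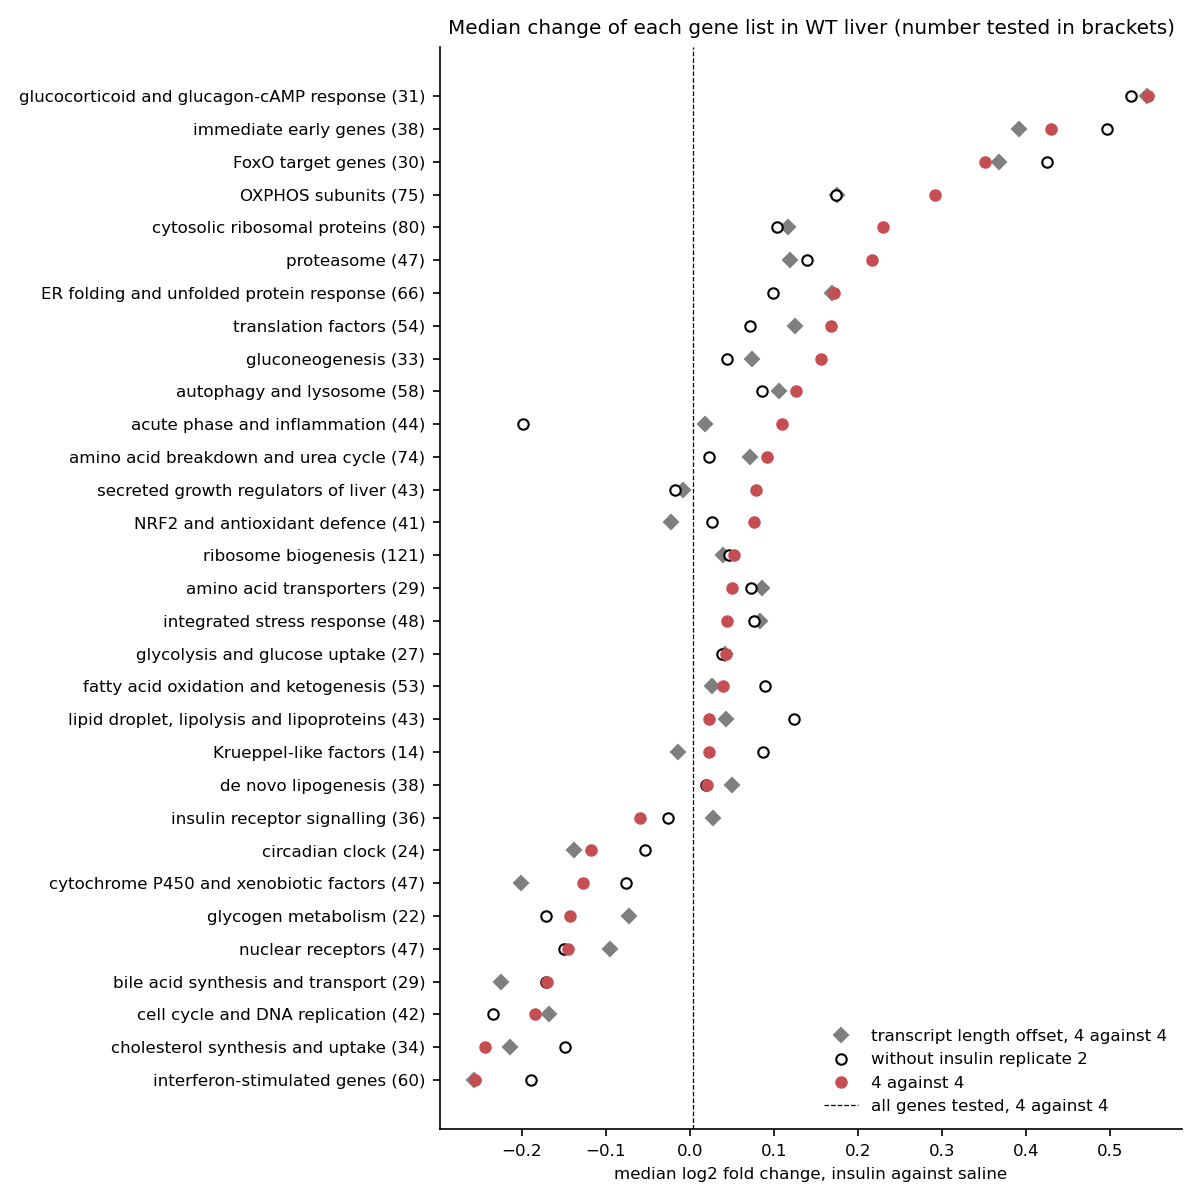
Median log2 fold change, insulin over saline, of each list from all 8 samples, without insulin replicate 2 and with the length offset, beside the median of all genes tested. The medians of ribosomal proteins (0.23 and 0.10) and of oxidative phosphorylation (0.29 and 0.17) move toward 0 without insulin replicate 2, and that of the FoxO list (0.35 and 0.42) does not. Without insulin replicates 1 and 2 together the FoxO median was lower, at 0.22.

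The same comparison in ERRα-/- livers shared no sample with that in WT and was run with 3 insulin samples in place of 4. There, 213 of 13684 genes were higher (1.56%) and 185 lower (1.35%). Of the 205 genes higher in WT, 204 were tested in ERRα-/-, of which 191 had the same sign and 67 were called the same way, which is also 67 of the 213 called there. Of the 220 lower in WT, 210 had the same sign and 63 were called, of 185 called there, and 0 genes of either set were called the opposite way with edgeR. The medians of the genes called in WT were 1.00 and −0.86 in WT and 0.67 and −0.49 in ERRα-/-, but these genes were chosen by their values in WT, which favours the larger size there. Klhdc7a (−4.14, adjusted p 0.00328), Paqr7 (−2.25, adjusted p 0.00570), Nr3c2 (−1.33, adjusted p 0.00328), Pmvk (1.92, adjusted p 0.0111), Plin5 (1.17, adjusted p 0.00503) and Lpin1 (2.01, adjusted p 0.00758) were called in both genotypes, with these log2 fold changes in ERRα-/-. Slc25a47 (0.16, adjusted p 0.680), Cdkn1a (1.15, adjusted p 0.119), Gadd45g (0.31, adjusted p 0.689) and Nr5a2 (−0.36, adjusted p 0.102) were called in WT alone. That does not show a difference between the genotypes. Tested as an interaction over 14670 genes, 0 genes passed with edgeR (0 also with DESeq2 size factors and without insulin replicate 2), 1289 had an unadjusted p under 0.05, and the smallest adjusted p was 0.389; limma voom and DESeq2 were not run on it. The interaction of Slc25a47 was 0.97 (standard error 0.23, unadjusted p 0.000585, adjusted p 0.422) and that of Cdkn1a 2.26 (standard error 0.62, unadjusted p 0.00202, adjusted p 0.422). Of the genes called in WT, 64 of those higher and 69 of those lower had an unadjusted interaction p under 0.05. Their choice by the change in WT, which is part of the interaction, favours such values, so these counts decide nothing. The FoxO list had 9 genes higher and 0 lower of 29 in ERRα-/- (median 0.42), and the glucocorticoid and cAMP list 2 and 0 (median 0.24). Ppargc1a, the coactivator PGC-1α, and Esrra, which encodes ERRα, were not called in WT with edgeR (18.3, 27.6, 11.6 and 15.1 with saline and 74.97, 24.7, 32.03 and 37.9 CPM with insulin, 1.22, adjusted p 0.0897; 32.9, 52.3, 43.5 and 41.2 with saline and 54.7, 98.7, 57.1 and 60.00 CPM with insulin, 0.67, 0.122). Both were called higher with DESeq2 (0.00409 and 0.0313) and limma voom (0.0159 and 0.0496), as was Ppargc1a without a filter (0.0465) and Esrra with a block for the replicate number (0.0403).

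Whole liver holds other cells beside hepatocytes. For 14 marker lists the summed CPM was compared by an exact permutation test over samples, and the smallest adjusted p was 0.7 (4 against 4 samples allow an unadjusted p of 0.0286 at the least). Kupffer cell and macrophage markers, 11 of 11 tested with Clec4f the most abundant, summed to 221, 444, 285 and 314 CPM with saline and 368, 363, 206 and 280.3 CPM with insulin. Endothelial markers, 9 of 9 with Ptprb the most abundant, summed to 261, 469, 398 and 396 CPM with saline and 344, 253, 370.3 and 395 CPM with insulin. Genes of tissue next to the liver differed widely between samples. Pancreatic acinar markers, 6 of 7 tested with Ctrb1 the most abundant and Amy2a5 at 0, summed to 1253, 61.8, 4.12 and 1689 CPM with saline and 18.1, 128, 7.01 and 207 CPM with insulin (exact permutation test, p = 0.343). Skeletal muscle markers, 2 of 6 tested with Myh1 the most abundant, reached 103 CPM in insulin replicate 3 against 0.450 to 3.79 CPM elsewhere. Cholangiocyte markers reached 43.1 CPM in insulin replicate 1 against 23.0 to 26.5 CPM elsewhere. The part of such tissue in the results was not tested.

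Some named genes share their position with others. The bodies of 18 of the 101 named genes overlap that of another tested gene, 17 of them on the other strand, and the methods name the NEBNext Ultra kit, not its directional form, without saying whether the counts kept strands apart. Dbp overlaps Sphk2 (log2 fold change 0.11), Btg3 overlaps Cxadr (0.08), Plin4 overlaps Hdgfl2 (−0.06), Txnip overlaps Gm15441 (0.43), Sds overlaps Plbd2 (−0.07), Fdft1 overlaps Ctsb (0.02) and Depp1 overlaps Rassf4 (−0.29), each on the other strand. Per3 overlaps Camta1 on its own strand (0.12). Among partners of called genes, values of the same sign were also those of Zfp697 (−1.004, for Hsd3b2), Abcg5 (−0.42, for Abcg8), Hpd (0.23) and Gm26745 (1.49, both for Psmd9) and LTO1 (−0.11, for Ccnd1). Their part in the counts of the named genes was not tested.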

How the data were processed

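RNA of mouse liver was measured by sequencing in 8 WT samples, and in 7 ERRα-/- samples for 1 comparison. The values are the raw gene counts that the authors deposited. The study's methods name STAR and mm10, and the strand setting is not given. No sample column was left unmatched (0). In R 4.3.3, edgeR 4.0.16 filtered low counts (filterByExpr), scaled libraries (TMM) and tested insulin against saline by its quasi-likelihood test with Benjamini-Hochberg adjustment. Standard errors are the log2 fold change over the square root of its F. CPM used TMM library sizes, and log2 values of single samples a prior count of 2. limma 3.58.1 and DESeq2 1.42.0 served as alternatives. Symbols and positions came from GENCODE on GRCm38, with 34490 identifiers (97.8%) matched. Named genes were the 12 largest rises and falls with an adjusted p under 0.05, a mean of at least 1 CPM and groups that did not overlap, without predicted genes, pseudogenes and immunoglobulins, then up to 4 called genes per list and direction by smallest p (with none called, the 2 most abundant), and 10 known readouts of insulin. Some of these genes are not reported here. Members and lists were chosen with earlier results of these data known. Of 19 alternatives, 18 were planned and 1, leaving out insulin replicates 1 and 2 together, was chosen after seeing the data. The fits of all 8 WT samples by edgeR, DESeq2 and limma voom were tested on simulated data, as was that of edgeR without insulin replicate 2. The other fits were not. At the depth of these samples, 1 CPM was about 40 counts.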

Additional observations from a re-analysis of the deposited data

Results flagged for a closer look

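In 16 of the 206 groups of 4 samples examined, a single sample lay so far from the rest that its gap to the nearest, divided by the range of the group, passed Dixon's 95% critical value for 4. Chance alone does this in about 1 of 20 groups, and their causes were not tested. For insulin replicate 2, the mitochondrial share was 1.88% against 3.88 to 4.17% in the others (ratio 0.875). Bag2 had 1.92 CPM in insulin replicate 2 against 6.33 to 6.95 CPM in the others of its group (ratio 0.878), and Esrra had 98.7 CPM in insulin replicate 2 against 54.7 to 60.00 CPM in the others of its group (ratio 0.88). Slc25a47 had 1180.0 CPM in insulin replicate 1 against 1439 to 1472 CPM in the others of its group (ratio 0.888), Btg1 had 63.1 CPM in insulin replicate 1 against 106 to 112 CPM in the others of its group (ratio 0.887), and Fasn had 154 CPM in insulin replicate 1 against 78.5 to 89.2 CPM in the others of its group (ratio 0.858). Tap1 had 19.01 CPM in insulin replicate 4 against 13.02 to 13.9 CPM in the others of its group (ratio 0.857). Pmvk had 8.25 CPM in saline replicate 1 against 5.87 to 6.13 CPM in the others of its group (ratio 0.889), Rplp0 had 496 CPM in saline replicate 1 against 363 to 385 CPM in the others of its group (ratio 0.833), and Crem had 17.6 CPM in saline replicate 1 against 11.7 to 12.7 CPM in the others of its group (ratio 0.837). Fdft1 had 30.7 CPM in saline replicate 2 against 50.1 to 53.8 CPM in the others of its group (ratio 0.84), Slc25a15 had 706 CPM in saline replicate 2 against 500.2 to 525 CPM in the others of its group (ratio 0.878), and Sds had 72.1 CPM in saline replicate 2 against 47.5 to 50.1 CPM in the others of its group (ratio 0.891). Lepr had 12.8 CPM in saline replicate 2 against 7.64 to 8.25 CPM in the others of its group (ratio 0.882). Slc36a1 had 49.3 CPM in saline replicate 4 against 36.6 to 38.4 CPM in the others of its group (ratio 0.857), and Ccnd1 had 16.2 CPM in saline replicate 4 against 33.9 to 36.8 CPM in the others of its group (ratio 0.858).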

How the results depend on the processing

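Of the values of the counts, the interaction and the length shift under the alternatives, 72 stayed on the same side or within 1.5 times and 15 moved. No called value reversed its sign (0). For single genes and lists, 3057 values were the same, 262 lost their call, 14 gained one and 352 moved. For 205 genes higher and 220 lower, DESeq2 gave 434 and 502, limma voom with sample weights 439 and 488, and the 4 groups fitted together 364 and 402. With 1 library left out the counts were 58 to 188 higher and 47 to 223 lower, and 231 and 232 with insulin replicates 1 and 2 both left out, an alternative chosen after seeing the data. DESeq2 size factors gave 203 and 218, total counts 198 and 184, no filter 228 and 230, a CPM filter 219 and 235, and the length offset 224 and 204. Whether replicate numbers pair the samples is not given. The correlations of residuals of like-numbered samples were −0.032, 0.0634, 0.29 and 0.22, 4 of 8 libraries correlated best with their own number, and a block for the number gave 201 and 206 (with the offset 232 and 224). Of 84 called named genes, 31 were called with each library left out. Without saline replicates 1, 2, 3 and 4 in turn, 42, 24, 32 and 51 lost the call. Without insulin replicates 1, 2, 3 and 4 in turn, 12, 13, 15 and 30 lost it. With insulin replicates 1 and 2 both left out 19 lost it, and not all of these losses are given with the genes. With 4 samples a group, small changes in genes of low count may have been missed, and the causes of these shifts were not tested.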
